A study of Mus musculus with 6 samples.

Results

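The RSK and MSK kinases are encoded in mouse by 6 genes, Rps6ka1 to Rps6ka6. The genes were taken from the deposited table by gene symbol, 1 row each, and make up 6 of its 57010 rows. All 6 had counts in every library, and all 6 passed the filter on low counts. Rps6ka4 was singled out because its counts differed between wild type and the samples lacking PNMA4 in an earlier analysis of the same table. Its difference between those groups is therefore given as a description, without a p-value, and the other 5 genes are the comparison.

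The libraries were made from RNA that came down with an antibody against PNMA4, a capsid-like protein derived from a retrotransposon gag gene and listed in mouse gene tables as Moap1. The starting material was a dense particle fraction of testis lysate, cleared through sucrose and then separated by density on iodixanol. The 3 wild-type libraries came from C57BL/6J mice. Of the 3 libraries lacking PNMA4, replicates 1 and 2 were Pnma4 KO and replicate 3 was the Pnma1, Pnma4 DKO, which the labels place in the same group. Each lysate pooled 8 testes taken at 3 months, so each library is 1 pool of animals, and the design text calls the lysates biological replicates. Nothing in the labels limits either deletion to a cell type. The comparison asks which RNA is recovered by the antibody only when PNMA4 is there to bind, and RNA of the lysate before immunoprecipitation was not analysed here. A level below is therefore an amount in the immunoprecipitate. A change in recovery, fewer cells of a type and less RNA per cell cannot be told apart.

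RSK and MSK proteins are serine/threonine kinases that carry a pair of kinase domains in 1 chain. The C-terminal domain resembles CaMK kinases and is switched on by MAP kinases, and the N-terminal domain belongs to the AGC kinases and phosphorylates the substrates. RSK1 to RSK4 (Rps6ka1, Rps6ka3, Rps6ka2 and Rps6ka6) answer mainly to ERK and to PDK1 and act on translation, growth and survival. MSK1 (Rps6ka5) and MSK2 (Rps6ka4) answer to both ERK and p38, sit in the nucleus, and phosphorylate histone H3 and transcription factors such as CREB1. Through these substrates they help to switch on immediate early genes.

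The libraries held 3743015, 6118126 and 6089047 counts in wild-type replicates 1 to 3, against 3138657, 6367930 and 4781490 counts in replicates 1 to 3 lacking PNMA4. Moap1 had 7, 26 and 27 counts in wild type and 0 in each library lacking PNMA4. Pnma1 had 76, 140 and 139 counts in wild type, 78 and 152 in the Pnma4 KO libraries and 0 in the DKO library, so the deleted genes matched the labels. Germ cell markers were abundant, with 14 of 14 tested and a summed level of 4362 to 4891 CPM in wild type against 4079 to 4652 CPM without PNMA4. The DKO library stood apart: 57.5% of its counts fell on the ribosomal RNA-like gene Rn18s-rs5, against 27.3% to 36.1% in the other 5. Its Leydig sum, its Sertoli sum and its joint sum of peritubular, vascular and blood markers were each the highest of the 6 libraries. Levels are given as CPM, the count scaled to a common library size with TMM factors. These allow for a large share of counts on a few genes such as Rn18s-rs5. They do not correct for a different mix of cells, and the marker sums above are already on this scale. A log2 fold change sets wild type over the samples lacking PNMA4 unless another pair is named. They come from edgeR's quasi-likelihood fit over 13413 genes, with p-values adjusted over all of them at a threshold of 0.05.

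Rps6ka4, the gene of the nuclear kinase MSK2, was chosen for its gap between the groups, which was the widest in the family. It lies on chromosome 19 from 6829084 to 6842145 (GRCm38.p6) and is listed as ENSMUSG00000118668. Wild-type replicates 1 to 3 had 78, 159 and 73 counts, against 19, 14 and 8 in replicates 1 to 3 lacking PNMA4. Pooled over a group, that is 310 raw counts in wild type against 41 without PNMA4, not adjusted for library size. As levels these were 20.5, 20.3 and 11.2 CPM in wild type, against 6.03, 2.00 and 2.68 CPM without PNMA4. The groups did not overlap, and the lowest wild-type library stood 1.86 times above the highest library lacking PNMA4. The mean level was 17.4 ± 5.31 CPM in wild type against 3.57 ± 2.16 CPM without PNMA4 (SD, n = 3 each). The fit put the log2 fold change at 2.38 ± 0.36 (SE), or 5.19-fold.

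Rps6ka4 was not absent without PNMA4, and its level varied within both groups. Wild-type replicate 3 had 11.2 CPM, with a 95% Poisson interval of 8.79 to 14.1 CPM that lies below the intervals of 16.2 to 25.6 and 17.3 to 23.8 CPM of wild-type replicates 1 and 2. Without PNMA4 the highest library was Pnma4 KO replicate 1 at 6.03 CPM (3.63 to 9.42 CPM), and its interval overlapped that of wild-type replicate 3. The lowest was Pnma4 KO replicate 2 at 2.00 CPM (1.09 to 3.36 CPM), and the DKO library was next at 2.68 CPM (1.15 to 5.27 CPM). These intervals cover counting error only and leave out the spread between pools of animals. Duplicate reads of 1 molecule cannot be told from separate molecules, so the intervals may be too narrow even for counting error. The order of the groups did not rest on the scaling: in CPM of the unscaled totals the gene stood at 20.8, 26.0 and 12.0 in wild type and at 6.05, 2.2 and 1.67 without PNMA4. Leaving out 1 library at a time gave a difference of 3.92-fold without Pnma4 KO replicate 2 to 7.62-fold without Pnma4 KO replicate 1. Without the DKO library, with its high ribosomal share, it was 4.86-fold.

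**Figure D1:**
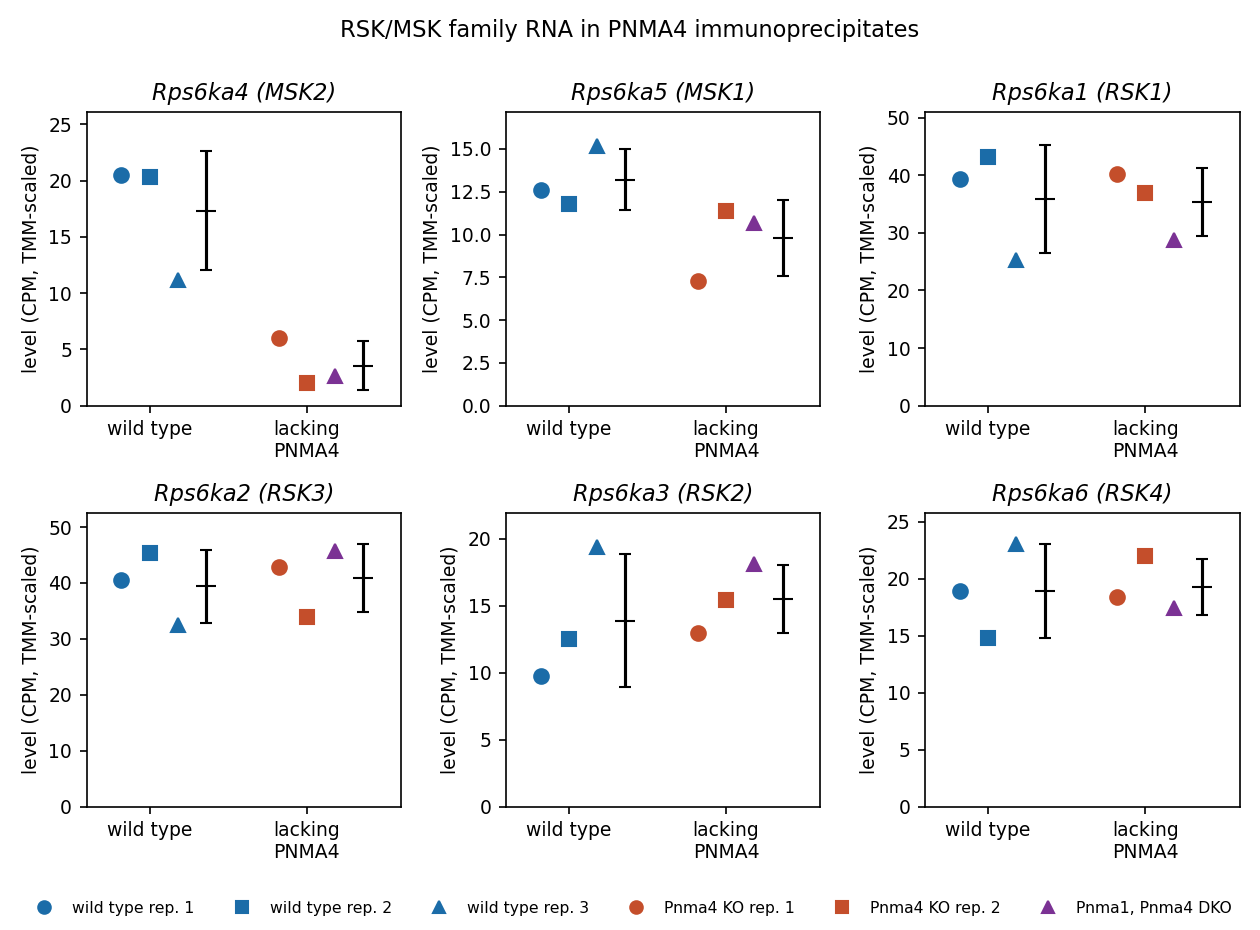
Level of each RSK/MSK gene in CPM (vertical axis, TMM-scaled, from 0, a separate scale for each gene) in the 3 wild-type libraries on the left and the 3 libraries lacking PNMA4 on the right of each panel. Bars are the mean ± SD of a group. Rps6ka4 lies between 11.2 and 20.5 CPM in wild type and between 2.00 and 6.03 CPM without PNMA4, while the groups of Rps6ka1, Rps6ka2, Rps6ka3 and Rps6ka6 overlap.

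The background for this contrast was sparse. Across the 13413 genes tested, 8 passed the adjusted threshold, 3 higher and 5 lower in wild type, which is 0.0596% of them. Every wild-type library lay above every library lacking PNMA4 for 440 genes, or 3.28%, and the groups did not overlap in either direction for 898 genes, or 6.69%. Rps6ka4 was chosen on this contrast, so nothing about the family is read from its own place among these genes.

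Rps6ka5 encodes MSK1, the closest relative of MSK2 in the family. It lies on chromosome 12 (100548439 to 100725328, ENSMUSG00000021180). Its levels were 12.6, 11.8 and 15.2 CPM in wild-type replicates 1 to 3 (48, 92 and 99 counts), against 7.30, 11.4 and 10.7 CPM in replicates 1 to 3 lacking PNMA4 (23, 80 and 32 counts). The groups did not overlap, but the lowest wild-type library stood only 1.03 times above the highest library lacking PNMA4. The mean was 13.2 ± 1.79 CPM in wild type against 9.81 ± 2.2 CPM without PNMA4 (SD, n = 3 each). The log2 fold change of 0.41 had a standard error of 0.26 and a 95% interval of -0.13 to 0.94, and did not pass (edgeR adjusted p = 1, unadjusted p = 0.133). The sign held in every alternative tried, between 0.25 and 0.71. These alternatives reuse the same libraries and the groups do not overlap, so the kept sign adds no support. Rps6ka5 shares its chromosome with Moap1, the deleted gene, at a distance of 2015 kb. Within 500 kb of Rps6ka5, 9 coding genes were tested, with a median log2 fold change of 0.03 and none called by edgeR, DESeq2 or limma-voom or at an unadjusted p under 0.05.

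Rps6ka1 encodes RSK1, which phosphorylates regulators of translation and cell survival downstream of ERK. The gene is on chromosome 4 (133847290 to 133887797, ENSMUSG00000003644). It stood at 39.4, 43.1 and 25.3 CPM in wild type (150, 337 and 165 counts), against 40.3, 36.9 and 28.8 CPM without PNMA4 (127, 258 and 86 counts). The groups overlapped almost completely, with replicate 3 the lowest library of each. The means were 36.0 ± 9.37 CPM in wild type against 35.3 ± 5.93 CPM without PNMA4 (SD, n = 3 each), and the log2 fold change of 0.02 had an interval of -0.46 to 0.50 (edgeR adjusted p = 1). A long non-coding gene within it, Gm12977, had between 2 and 8 counts a library. How reads shared by the overlapping genes were counted is not given in the sources.

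Rps6ka2 encodes RSK3, a further ERK-driven member, on chromosome 17 (7088971 to 7303315, ENSMUSG00000023809). Wild type had 40.5, 45.3 and 32.4 CPM (154, 354 and 211 counts), against 42.8, 34.0 and 45.8 CPM without PNMA4 (135, 238 and 137 counts). The highest library was the DKO and the lowest wild-type replicate 3, with the others in between. The log2 fold change was -0.04 with an interval of -0.49 to 0.40 (edgeR adjusted p = 1).

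Rps6ka3 and Rps6ka6 both lie on the X chromosome. Rps6ka3 encodes RSK2, whose loss causes Coffin-Lowry syndrome in humans (159255665 to 159368244, ENSMUSG00000031309). It had 9.73, 12.5 and 19.4 CPM in wild type (37, 98 and 126 counts), against 13.0, 15.4 and 18.1 CPM without PNMA4 (41, 108 and 54 counts). The groups overlapped, and the wild-type libraries took both the lowest and the highest place. Its log2 fold change was -0.14 with an interval of -0.69 to 0.41 (edgeR adjusted p = 1). Rps6ka6 encodes RSK4 (111387837 to 111538097, ENSMUSG00000025665). It had 18.9, 14.8 and 23.0 CPM in wild type (72, 116 and 150 counts), against 18.4, 22.0 and 17.4 CPM without PNMA4 (58, 154 and 52 counts). Here too the libraries lacking PNMA4 fell inside the wild-type range, and the log2 fold change was -0.04 with an interval of -0.54 to 0.45 (edgeR adjusted p = 1).

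None of these 5 paralogues passed the test, and none had an unadjusted p under 0.05, against 2.92% of all genes tested. DESeq2 and limma-voom also called 0 of the 5. Their median log2 fold change was -0.04, beside 0.01 over all genes tested. The intervals of the 4 RSK genes reach no further than -0.69 and 0.50, and differences within those bounds are not excluded. With the raw library totals in place of TMM scaling the median of all genes moved to 0.31, and Rps6ka2, Rps6ka3 and Rps6ka6 turned to 0.30, 0.18 and 0.23, each below that median. On the same totals Rps6ka4 stood at 2.66 and Rps6ka5 at 0.71. Summed on the TMM scale, the paralogues gave 121, 128 and 115 CPM in wild type and 122, 120 and 121 CPM without PNMA4.

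**Figure D2:**
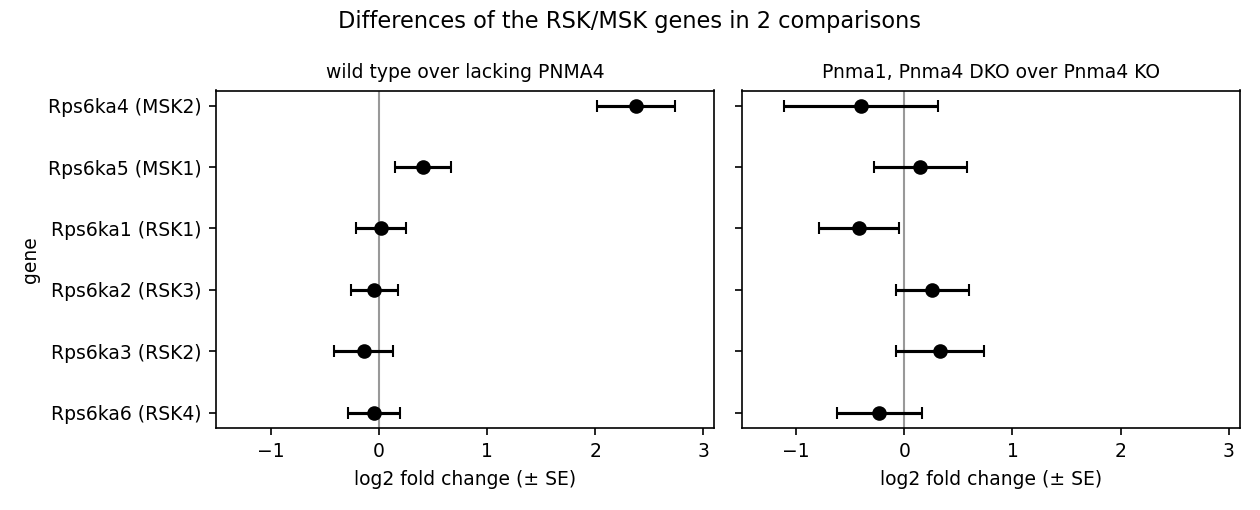
Log2 fold change of each RSK/MSK gene (points) with its standard error (bars), for wild type over lacking PNMA4 on the left and for the DKO library over the Pnma4 KO libraries on the right. On the left Rps6ka4 stands at 2.38 and the paralogues between -0.14 and 0.41. On the right all 6 lie between -0.42 and 0.33.

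Setting Rps6ka4 against its own relatives removes the library size from the comparison. Rps6ka4 took 14.5%, 13.8% and 8.86% of the family's counts in wild-type replicates 1 to 3, against 4.71%, 1.64% and 2.17% in replicates 1 to 3 lacking PNMA4. The mean share was 12.4% ± 3.05 in wild type against 2.84% ± 1.64 without PNMA4 (SD, n = 3 each). The groups did not overlap, although the 95% Wilson interval of wild-type replicate 3 (7.11% to 11%) reached just below the upper end of that of Pnma4 KO replicate 1 (3.04% to 7.25%). Longer transcripts collect more reads, so such a share compares libraries and does not order the 6 genes by number of molecules.

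The paralogues' own shares overlapped between the groups. Rps6ka4 was chosen on this contrast, so nothing is read from its gap beside theirs. Its counts are also part of the family total, so a lower Rps6ka4 share raises the other shares. Rps6ka1 took 20.0% to 29.2% in wild type against 23.3% to 31.5% without PNMA4. Rps6ka2 took 25.6% to 30.6% in wild type against 27.9% to 37.1% without PNMA4. For Rps6ka5 the range was 7.96% to 12.0% in wild type against 5.71% to 9.39% without PNMA4.

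The ratio within the MSK pair was less clear than the share. Rps6ka4 had 1.62, 1.73 and 0.737 counts for each count of Rps6ka5 in wild type, against 0.826, 0.175 and 0.250 without PNMA4. On this measure the groups overlapped, since wild-type replicate 3 fell below Pnma4 KO replicate 1. The mean ratio was 1.36 ± 0.545 in wild type against 0.417 ± 0.356 without PNMA4 (SD, n = 3 each). Wild-type replicate 3 had both the least Rps6ka4 and the most Rps6ka5 of its group, and Pnma4 KO replicate 1 had the most Rps6ka4 and the least Rps6ka5 of its own.

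**Figure D3:**
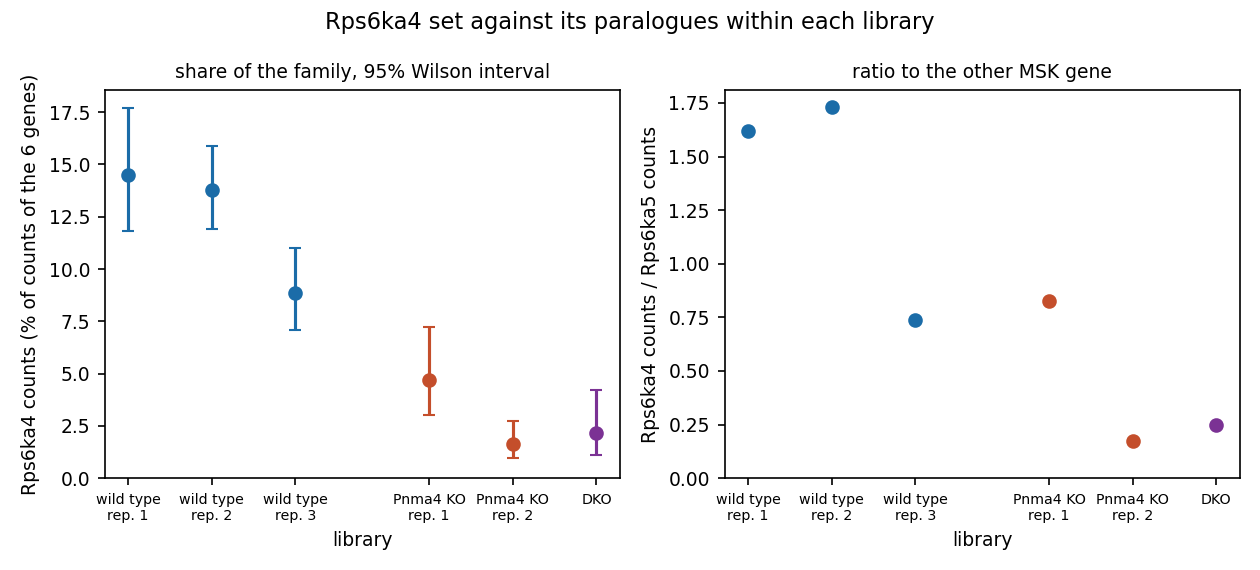
Counts of Rps6ka4 as a percentage of the counts of all 6 RSK/MSK genes, with 95% Wilson intervals (left), and as a ratio to the counts of Rps6ka5 (right), for each library with wild type first. The share separates the groups, at 8.86% to 14.5% in wild type against 1.64% to 4.71% without PNMA4. The ratio does not, since wild-type replicate 3 (0.737) lies below Pnma4 KO replicate 1 (0.826).

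The family moved in more than 1 way among the wild-type libraries themselves. In wild-type replicate 3, Rps6ka1, Rps6ka2 and Rps6ka4 had their lowest wild-type level, and Rps6ka3, Rps6ka5 and Rps6ka6 their highest. Over the 6 libraries the Pearson r of log2 CPM with Rps6ka4 was 0.34 for Rps6ka5, 0.29 for Rps6ka1 and 0.15 for Rps6ka2. It was -0.56 for Rps6ka3 and -0.34 for Rps6ka6. These values are descriptions over 6 libraries that share the same group difference and the same scaling.

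The DKO library lacks Pnma1 as well as Pnma4, and setting it against the 2 Pnma4 KO libraries asks whether the family differed among the samples lacking PNMA4. This contrast shares those 3 libraries with the one above, and with 1 DKO library it assumes that the DKO varies like the other genotypes. Rps6ka4 stood at 2.68 CPM in the DKO library, against a mean of 4.01 CPM in the Pnma4 KO libraries. The DKO level lay between the 2 Pnma4 KO values of 2.00 and 6.03 CPM. Its log2 fold change, DKO over Pnma4 KO, was -0.40 with a standard error of 0.71 and an interval of -1.85 to 1.05 (edgeR adjusted p = 0.996). Without Pnma4 KO replicate 1 it turned to 0.41.

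The paralogues gave no call in this contrast either. Rps6ka1 had 28.8 CPM in the DKO library and a mean of 38.6 CPM in the Pnma4 KO libraries, with a log2 fold change of -0.42 (interval -1.18 to 0.34). Rps6ka3 had 18.1 CPM in the DKO library and 14.2 CPM in Pnma4 KO, with a log2 fold change of 0.33 (interval -0.50 to 1.16). The log2 fold changes were 0.26 for Rps6ka2, 0.15 for Rps6ka5 and -0.23 for Rps6ka6. On the raw library totals all 6 members were negative in this contrast (-0.43 to -1.17), where the median of all genes was -0.76. Over all genes edgeR called 10, or 0.0746%. None of the 6 members was among them or had an unadjusted p under 0.05, and DESeq2 and limma-voom called none of the 6.

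The genes around the family in its pathways were described through 8 lists, which hold 139 genes in the table. Of these, 114 were tested and 0 passed in edgeR, DESeq2 or limma-voom. The median log2 fold change was -0.01, and 54 of 114 were positive, beside a median of 0.01 and 52.0% positive over all genes tested. Single values ran from -0.84 to 0.53. The groups did not overlap for 7 of the 114, or 6.14%, close to the 6.69% of all genes. An unadjusted edgeR p under 0.05 was also met by 7, or 6.14%, against 2.92% of all genes. Over all genes tested, those under 0.05 were 221 lower and 171 higher in wild type. On the lists all 7 were lower in wild type. Named after their values were seen, these were Map2k1, Map2k3, Dusp16, H3f3a, Mcl1, Sgk3 and Camk2d, with log2 fold changes of -0.84 to -0.50 and an adjusted p of 1 each in edgeR.

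The kinases that switch on RSK and MSK were recovered in both groups. Of 17 listed genes, 12 were tested, 0 passed, and 6 lay on each side of 0, with a median of -0.02. Pdpk1, the gene of PDK1, which phosphorylates the N-terminal domain of RSK, had 155 ± 18.0 CPM in wild type against 149 ± 16.0 CPM without PNMA4. Braf, a kinase at the head of the ERK cascade, had 95.8 ± 21.6 CPM in wild type against 80.4 ± 8.61 CPM without PNMA4 (SD, n = 3 each). Of the 7 genes with an unadjusted p under 0.05, 2 were on this list. Map2k1, which encodes the MEK1 kinase of ERK, had 3.19 ± 0.753 CPM in wild type against 6.03 ± 1.19 CPM without PNMA4 (log2 fold change -0.84, edgeR adjusted p = 1). Map2k3, which encodes the MKK3 kinase of p38, had 14.4 ± 2.63 CPM in wild type against 22.6 ± 2.18 CPM without PNMA4 (log2 fold change -0.63, edgeR adjusted p = 1).

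The phosphatases and scaffolds that restrain ERK and p38 were spread around 0. Of 16 listed genes, 14 were tested, with 0 passing, 7 on each side and a median of -0.01. The phosphatase gene Ppm1a had 148 ± 21.9 CPM in wild type against 158 ± 8.77 CPM without PNMA4. Its relative Ppm1d had 130 ± 15.5 CPM in wild type against 122 ± 13.8 CPM without PNMA4.

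Substrates of MSK had the lowest median of the pathway lists, -0.24 over 9 tested genes, with 6 negative and 0 passing. Trim28, a co-repressor that MSK phosphorylates, had 255 ± 38.1 CPM in wild type against 262 ± 16.1 CPM without PNMA4. H3f3b, a gene of histone H3.3, had 125 ± 15.1 CPM in wild type against 148 ± 7.98 CPM without PNMA4, with a log2 difference of -0.24 (adjusted p = 1 in edgeR). Substrates of RSK stood at a median of -0.02 over 15 tested genes, with 7 positive and 0 passing. Eif4b, a translation initiation factor, had 91.1 ± 8.85 CPM in wild type against 92.2 ± 11.1 CPM without PNMA4, and Pdcd4, an inhibitor of translation, 77.4 ± 14.3 CPM in wild type against 90.0 ± 8.77 CPM without PNMA4.

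Immediate early genes, which MSK helps to switch on, were tested for 6 of 11, with 3 on each side of 0 and 0 passing. Mcl1, an anti-apoptotic gene, had 46.9 ± 8.94 CPM in wild type against 66.0 ± 14.4 CPM without PNMA4. Nr4a1, a nuclear receptor gene, had 27.3 ± 10.2 CPM in wild type against 23.8 ± 8.01 CPM without PNMA4.

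Kinases related to the family by domain showed no call either. The p70 S6 kinase gene Rps6kb1 had 12.6 ± 3.81 CPM in wild type against 13.0 ± 2.63 CPM without PNMA4, and the S6K-like gene Rps6kc1 had 10.9 ± 2.00 CPM in wild type against 11 ± 2.26 CPM without PNMA4. Of 40 other AGC kinases tested, 20 were positive, the median was 0.01 and 0 passed. The most abundant of them were Mast2, with 262 ± 50.4 CPM in wild type against 235 ± 22.7 CPM without PNMA4, and Cit, with 193 ± 21.4 CPM in wild type against 159 ± 35.7 CPM without PNMA4. Of 16 CaMK-type kinases, which include the testis-specific TSSK group, 7 were positive, the median was -0.04 and 0 passed. Mknk2, an ERK-activated kinase of translation factors, had 62.1 ± 16.2 CPM in wild type against 48.9 ± 6.72 CPM without PNMA4. Tssk2 had 56.0 ± 16.6 CPM in wild type against 63.6 ± 16.7 CPM without PNMA4.

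**Figure D4:**
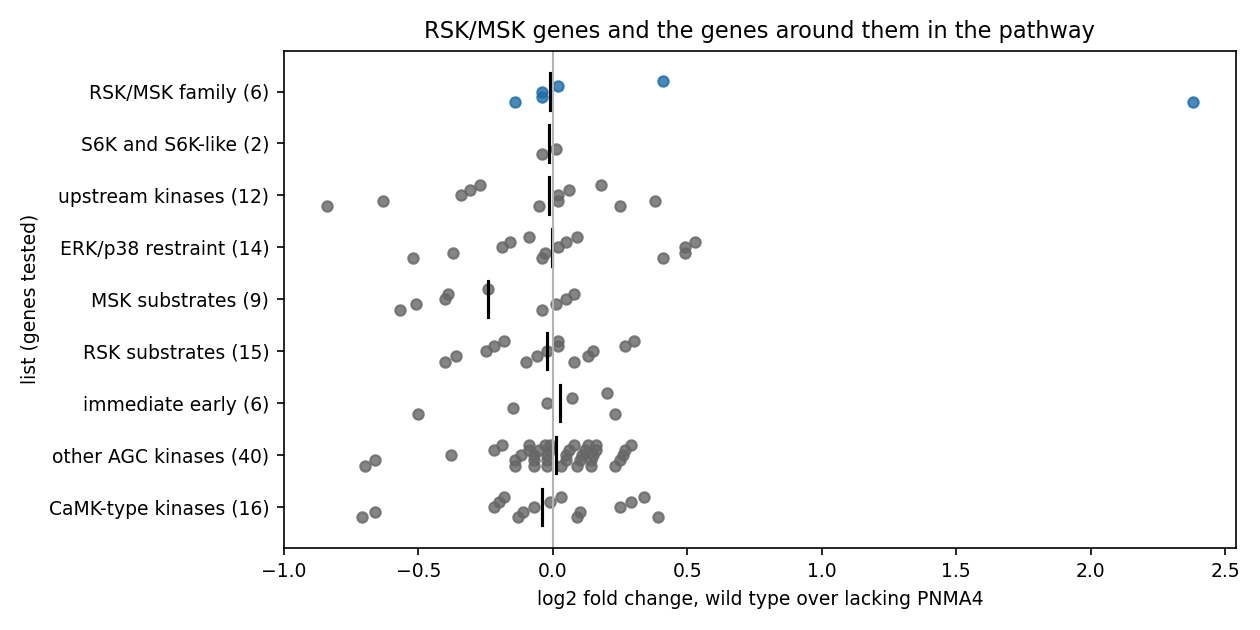
Log2 fold change, wild type over lacking PNMA4 (horizontal axis), of each tested gene in the RSK/MSK family (blue) and in 8 lists of related genes (grey), with the list medians as vertical bars. All 114 genes of the grey lists lie between -0.84 and 0.53. Rps6ka4, which was chosen for this contrast, stands at 2.38.

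The genes next to Rps6ka4 on chromosome 19 had small differences. The nearest coding gene, Ccdc88b, starts 2477 bases after it and had 21.7 ± 4.26 CPM in wild type against 19.7 ± 4.65 CPM without PNMA4, a log2 fold change of 0.11. Prdx5, which encodes a peroxiredoxin, and Trmt112, which encodes a methyltransferase cofactor, follow it at -0.12 and 0.12. On the other side the nearest coding gene, Slc22a12, ends 286013 bases away. It and Rasgrp2 had too few counts for the test, and Nrxn2 stood at 0.31. Within 500 kb, 23 of the 31 coding genes in the table were tested, with a median of 0.08 and a range of -0.64 (Rcor2) to 0.40 (Ppp1r14b). None of the 23 was called by edgeR, DESeq2 or limma-voom, and none had an unadjusted p under 0.05. The microRNA gene Mir5046 lies within Rps6ka4 and had 0 counts in every library.

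Among 9474 genes with a mean of at least 5 CPM, the 5 whose log2 CPM followed that of Rps6ka4 most closely over the 6 libraries were Necab3, BC049715, Cpne5, Rptor and Zfp286. Their Pearson r lay between 0.961 and 0.976, as a description over 6 libraries picked from many genes. Their log2 fold changes lay between 0.30 and 0.72. Rps6ka4 was itself chosen for its gap between the groups, so their positive sign is largely fixed by the choice and adds no support. Cpne5, a copine gene, had 12.5 ± 1.52 CPM in wild type against 7.61 ± 1.45 CPM without PNMA4, a log2 fold change of 0.72. Zfp286 had 10.7 ± 0.331 CPM in wild type against 7.15 ± 1.21 CPM without PNMA4, and Necab3 6.14 ± 0.261 CPM in wild type against 4.53 ± 0.785 CPM without PNMA4. Rptor encodes the mTORC1 subunit RAPTOR, which RSK phosphorylates, and is also on the list of RSK substrates. It had 41.2 ± 2.53 CPM in wild type against 33.6 ± 3.92 CPM without PNMA4, a log2 difference of 0.30 (adjusted p = 1 in edgeR).

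Markers of other cells in the lysate differed between some libraries. The 7 Leydig cell markers summed to 137 to 149 CPM in wild type against 133 to 363 CPM without PNMA4, with the highest value in the DKO library. The Pnma4 KO libraries had 133 and 176 CPM. Of the 7 markers, 6 were lower in wild type, with a median log2 fold change of -0.78. An unadjusted edgeR p under 0.05 was met by 4 of them, against 2.92% of all genes. None of the 7 passed in edgeR, DESeq2 or limma-voom, and at most 1 passed in any alternative. The Sertoli cell markers, 7 of 8 tested, summed to 167 to 242 CPM in wild type against 167 to 355 CPM without PNMA4, again highest in the DKO library. The peritubular, vascular and blood markers, 4 of 8 tested, summed to 25.8 to 39.2 CPM in wild type against 21.6 to 56.8 CPM without PNMA4, with the DKO library again at the top. The 6 epididymis markers summed to 0.461 to 0.895 CPM in wild type against 4.71 to 11 CPM without PNMA4. The sum rested almost wholly on Crisp1 and Adam7. Crisp1 had 2, 5 and 1 counts in wild type against 20, 21 and 24 without PNMA4. Adam7 had 1, 2 and 2 counts in wild type against 4, 10 and 8 without PNMA4. Lcn5 and Defb1 were at 0 in every library, and Lcn8 and Spink8 had at most 1 count in any. Of the 6, Crisp1 alone was tested, and it passed (log2 fold change -3.57, edgeR adjusted p = 0.00244). DESeq2 also made this call and limma-voom did not. The epididymis sum was higher without PNMA4, opposite to Rps6ka4, and separated the same libraries. Rps6ka4 was chosen for its gap between these groups, and the groups did not overlap for 6.69% of all genes tested. The part of the epididymis genes in the Rps6ka4 result was not tested.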

How the data were processed

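The authors deposited 1 table of raw whole-number counts per Ensembl gene, used as deposited. The tools named, per the submitters' processing notes, include STAR 2.5.2b and featureCounts, with the mouse build GRCm38. The sources used here give neither the strand setting nor the release of the annotation. Total counts ran from 3138657 to 6367930 per library. Genes were tested with edgeR 4.0.16 in R 4.3.3 (low counts filtered by filterByExpr at min.count 10 and min.total.count 15, TMM, quasi-likelihood F test, Benjamini-Hochberg over 13413 genes at 0.05). Standard errors were taken from each log2 fold change and its F statistic (size over root F). DESeq2 1.42.0, limma-voom (limma 3.58.1), 3 other scalings, no filter, a replicate block, scaling without Rn18s-rs5 and Lars2, and each library left out were the alternatives. Simulated counts with known changes were used to test the edgeR step. Coordinates and neighbours come from the RefSeq gene table of GRCm38.p6. Intervals of shares are Wilson and of counts exact Poisson, at 95%.

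Named genes were the 6 members, Moap1 and Pnma1, of each list the members past the threshold or the 2 most abundant, the 3 coding genes on each side of Rps6ka4, and the 5 genes with the highest r. The 7 pathway genes with an unadjusted p under 0.05 were named outside this rule, after their values were seen. So were the epididymis markers other than Crisp1. The members and lists were chosen with earlier results of these data known.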

Additional observations from a re-analysis of the deposited data

How the results depend on the processing

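The log2 fold change of Rps6ka4, wild type over lacking PNMA4, ran from 1.97 to 2.93 over the 14 alternatives, and the replicate block gave 2.43. Rps6ka4 was chosen on these same libraries and its groups do not overlap, so a kept sign adds no support. Same-numbered libraries correlated at 0.04, -0.06 and 0.08, on a measure that put all pairs across the groups between -0.19 and 0.19. So few pairs cannot show whether the numbers pair the libraries. The replicate block gave 3 genes higher and 4 lower. The log2 fold change of Rps6ka5, whose groups do not overlap either, also kept its sign, which adds no support. No paralogue passed in any alternative. Values near 0 changed sign. With total counts only, the wild type contrast gave 0.30 for Rps6ka2, 0.18 for Rps6ka3 and 0.23 for Rps6ka6, and the DKO contrast -0.49 for Rps6ka2, -0.43 for Rps6ka3 and -0.62 for Rps6ka5. Limma-voom gave 0.04 for Rps6ka2. With each library left out in turn, the wild type contrast ran from -0.13 to 0.23 for Rps6ka1, -0.17 to 0.09 for Rps6ka2, -0.45 to 0.03 for Rps6ka3 and -0.22 to 0.12 for Rps6ka6. The DKO contrast ran from -1.19 to 0.41 for Rps6ka4 and -0.10 to 0.52 for Rps6ka5. The count of genes higher in wild type was 3, and 2 to 6 with 1 library left out (6 without wild-type replicate 2, 5 without Pnma4 KO replicate 2). The count lower was 5, and 5 to 14 with 1 library left out (14 without the DKO library). Without the filter these were 11 and 20, and limma-voom gave 3 lower. The DKO contrast called 10 genes, against 201 with total counts only, 16 in DESeq2, 70 in limma-voom and 31 without the filter, and 10 to 35 with 1 library left out (22 and 35 without wild-type replicates 2 and 3, 18 without Pnma4 KO replicate 1). The cause of these shifts was not tested. The 8 to 19 counts of Rps6ka4 in libraries lacking PNMA4 limit the precision of its fold.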
